A study of Mus musculus with 16 samples.

Results

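The comparison described here set mouse embryonic stem (ES) cells with a serum-containing history beside ES cells with a serum-free history, 40 h after both had been released from naive pluripotency. It used 4 of the 16 libraries of the series, namely replicates 1 and 2 of each maintenance medium at 40 h, chosen by their titles. It covered every gene that passed the count filter, 14288 of the 27179 genes in the deposited table. RNA was measured by poly(A)-selected sequencing, and levels are given as CPM, counts scaled to a common library total.

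Both groups were ES cells first grown in serum with leukaemia inhibitory factor (LIF), then adapted for 3 passages to one of the 2 media and used for at most 9 passages more. Both media held LIF and the inhibitor mix known as 2i. One inhibitor, CHIR99021 at 3 uM, turns on the Wnt pathway by blocking GSK3, and the other, PD0325901 at 1 uM, blocks MEK and thereby shuts off ERK. Both media also held 2 mM glutamine. The first group, 2i/LIF, was kept without serum in DMEM/F-12 and Neurobasal with the N-2 and B-27 supplements. The second, serum/LIF+2i, was kept in knockout DMEM with 10% fetal bovine serum. For exit, 2i and LIF were withdrawn from both, and neither received serum from then on. The 2i/LIF cells kept the base medium they were used to, whereas those from serum/LIF+2i were moved into glutamine-free DMEM and Neurobasal with N-2, B-27 and 2 mM glutamine. The maintenance medium and the base medium during exit therefore cannot be told apart in any value below. The labels name no genotype or cell line, and they do not say whether the 2 replicates were separate cultures. The p-values and standard errors therefore measure only the spread between replicate libraries, which may be technical. That spread was fitted over all 16 libraries of the series, not over those at 40 h alone.

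When 2i and LIF are withdrawn, naive ES cells lose the transcription factors of the early epiblast and take on a formative state, in which Otx2, Fgf5 and the de novo DNA methyltransferases are raised, before lineage genes begin to appear. Cells in culture pass through this window at a pace that depends on their conditions. A difference between groups at one time can therefore be a difference in level or in timing, and bulk RNA does not separate a change in every cell from a change in the share of cells.

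The libraries held 7858428 and 7173358 counts in 2i/LIF, and those of serum/LIF+2i held 11142744 and 9926274, so depth moved with medium. Between 17475 and 17492 genes had a count in 2i/LIF and between 18255 and 18392 in serum/LIF+2i. Thinned to the lowest total, an alternative chosen after seeing the data, the libraries still gave 3409 called genes. Replicates of all 8 groups of the series correlated across genes with r of 0.991 to 0.995 on the log2 scale and differed by more than sampling noise. The labelled cell type carried its defining markers: Pou5f1 stood at 635 and 635 CPM in 2i/LIF against 674 and 678 CPM in serum/LIF+2i, Sox2 at 142 and 141 CPM in 2i/LIF against 152 and 137 CPM in serum/LIF+2i, and Epcam at 284 and 291 CPM in 2i/LIF against 291 and 286 CPM in serum/LIF+2i.

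By edgeR's quasi-likelihood test with Benjamini-Hochberg adjustment over all genes, 3897 of 14288 genes (27.3%) differed between the media at 40 h. Of all genes, 13.9% (1980) were higher in serum/LIF+2i and 13.4% (1917) were lower. Most differences were small. The median absolute log2 difference was 0.40 among the genes that were higher and 0.31 among those that were lower, and 313 and 169 genes reached 1. The 2 libraries of one medium lay beyond both of the other for 1976 of the 1980 and 1907 of the 1917. The calls compared these same libraries and the share over all genes was not counted, so this adds no support to the calls. Without replicate 1 of 2i/LIF the count was 2240, and with DESeq2 it was 2010.

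**Figure D1:**
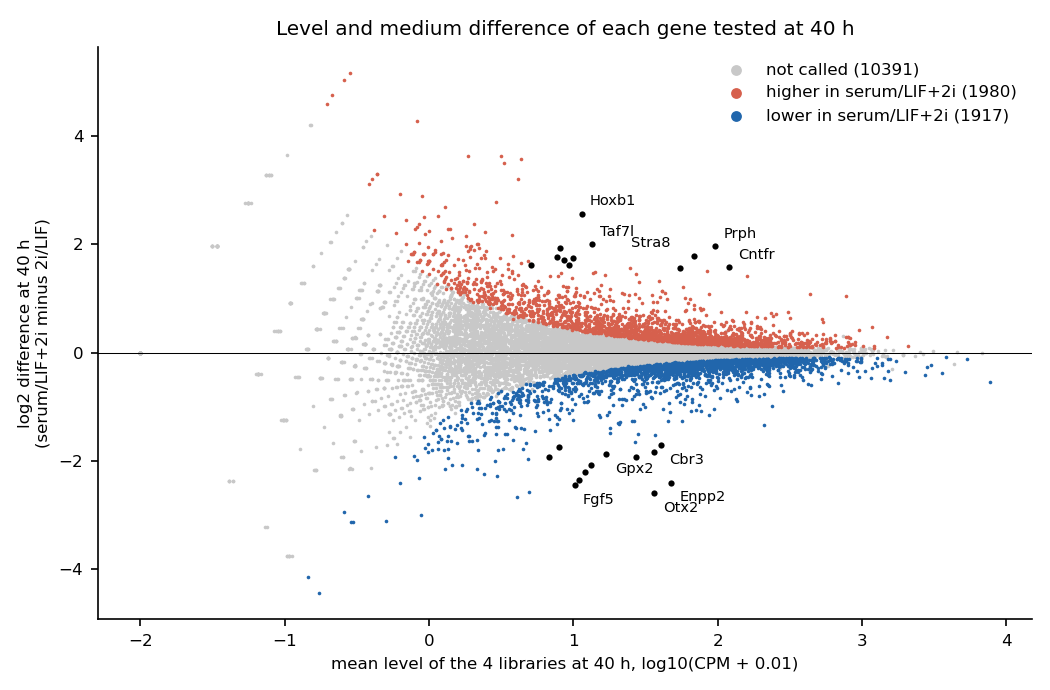
Each point is a gene tested at 40 h, placed by its mean level over the 4 libraries, as log10(CPM + 0.01), and by its log2 difference, serum/LIF+2i minus 2i/LIF. Coloured points were called (1980 higher, 1917 lower), black points are the 24 genes with the largest differences under the naming rule, and most coloured points lie within 1 log2 unit of 0.

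Under the naming rule (at least 5 CPM on average, no overlap of the media), Otx2 (Entrez 18424) was the called gene furthest below 2i/LIF at 40 h. It is the homeodomain factor that drives the passage from naive to formative pluripotency and later patterns the anterior of the embryo. Its level was 64.8 and 60.1 CPM in 2i/LIF against 11.3 and 9.29 CPM in serum/LIF+2i. The serum/LIF+2i libraries were both far below the 2i/LIF libraries, and the log2 difference was -2.59 ± 0.10 (SE, n = 2 a group, adjusted p = 6.93e-46 by edgeR). The next was Fgf5 (Entrez 14176), a growth factor of the post-implantation epiblast, at 20.04 and 14.4 CPM in 2i/LIF against 2.76 and 3.58 CPM in serum/LIF+2i. Its log2 difference was -2.45 ± 0.21 (adjusted p = 1.33e-17 by edgeR). In the GENCODE vM21 annotation of GRCm38, Otx2 lies on chromosome 14 from 48657677 to 48673819 (minus strand) and Fgf5 on chromosome 5 from 98254184 to 98277030 (plus strand). Exons of Otx2 overlap those of Otx2os1 on the other strand, and since the sources used here do not give the counting's strand setting, reads of the pair cannot be told apart.

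Among the other large lower values, Enpp2, the secreted enzyme autotaxin that makes lysophosphatidic acid, stood at 85.3 and 74.9 CPM in 2i/LIF against 15.5 and 14.7 CPM in serum/LIF+2i, and Liph, a lipase that makes the same lipid, at 45.8 and 40.8 CPM in 2i/LIF against 10.5 and 12.2 CPM in serum/LIF+2i. The log2 differences were -2.41 ± 0.10 and -1.94 ± 0.11, where values after ± are standard errors here and below. Spon1, a secreted matrix protein, had a log2 difference of -2.35 ± 0.20, and Igfbp5, which binds insulin-like growth factors, one of -2.21 ± 0.18. The chemokine Cxcl12 stood at 62.2 and 50.5 CPM in 2i/LIF against 16.5 and 15 CPM in serum/LIF+2i (log2 difference -1.84 ± 0.11). The group was completed by Plcd1, a phospholipase C (-2.07 ± 0.16), Acss1, a mitochondrial acetyl-CoA synthetase (-1.92 ± 0.21), Gpx2, a glutathione peroxidase (-1.88 ± 0.13), the carbonyl reductase Cbr3 (-1.71 ± 0.09) and Ror1, a receptor of Wnt5a (-1.74 ± 0.21). The naming rule admitted only genes in which the 2 libraries of each medium lay on their own side, so the separation of these 12 is not a finding. Before exit, Gpx2 (-2.17 ± 0.07), Igfbp5 (-1.80 ± 0.27), Acss1 (-1.30 ± 0.10), Liph (-1.23 ± 0.10) and Cbr3 (-0.74 ± 0.09) were already called lower. So was Ror1, at 0 CPM in both serum/LIF+2i libraries of that time. Otx2 was then called higher (1.73 ± 0.55), and Fgf5, Enpp2, Spon1, Plcd1 and Cxcl12 were not called.

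At the other end, by the same rule, Hoxb1 (Entrez 15407) had the largest higher value. It is a homeobox gene of the hindbrain and posterior embryo that retinoic acid induces, and it stood at 1.63 and 5.03 CPM in 2i/LIF against 18.8 and 20.1 CPM in serum/LIF+2i. The 2i/LIF libraries were far apart from each other, at 13 and 37 counts, and both were below either serum/LIF+2i library. The log2 difference was 2.57 ± 0.22 (SE, adjusted p = 2.49e-17 by edgeR). That SE rests on a spread fitted over all 16 libraries, so it does not measure the gap between the 2i/LIF libraries. Stra8, named for its response to retinoic acid and needed for the entry into meiosis, stood at 25.7 and 35.5 CPM in 2i/LIF against 105 and 106 CPM in serum/LIF+2i (1.79 ± 0.10, adjusted p = 2.72e-19 by edgeR). The annotation places Hoxb1 on chromosome 11 from 96365752 to 96368256 and Stra8 on chromosome 6 from 34920163 to 34939344, both on the plus strand.

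Cdkn1c, the imprinted inhibitor of cyclin-dependent kinases also called p57, stood at 26.8 and 28.8 CPM in 2i/LIF against 80.1 and 83.5 CPM in serum/LIF+2i, a log2 difference of 1.56 ± 0.09. Cntfr, the binding subunit for ciliary neurotrophic factor that signals with the LIF receptor, stood at 56.1 and 64.8 CPM in 2i/LIF against 178 and 183 CPM in serum/LIF+2i (1.58 ± 0.06). Prph, which encodes the neuronal filament protein peripherin, was at 30.1 and 48.8 CPM in 2i/LIF against 151 and 154 CPM in serum/LIF+2i (1.96 ± 0.14). Taf7l, a germ cell form of a general transcription factor, was higher by 2.00 ± 0.17 and Dock3, an activator of Rac, by 1.94 ± 0.21. The remaining genes were Steap1, a metalloreductase family member (1.76 ± 0.21), the transcription factor Rfx4 (1.74 ± 0.20), the matrix protease Mmp9 (1.71 ± 0.20), the ATP-gated channel P2rx3 (1.62 ± 0.20) and the collagen receptor kinase Ddr2 (1.62 ± 0.25). Exons of P2rx3, Ddr2 and Acss1 overlap another counted gene on the other strand, as do those of Syvn1, Lamp1, Ccnd1, Ccnd2, Notch1, Zcwpw1, Nid2 and Arg2 named below, so their counts carry the same doubt as Otx2.

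**Figure D2:**
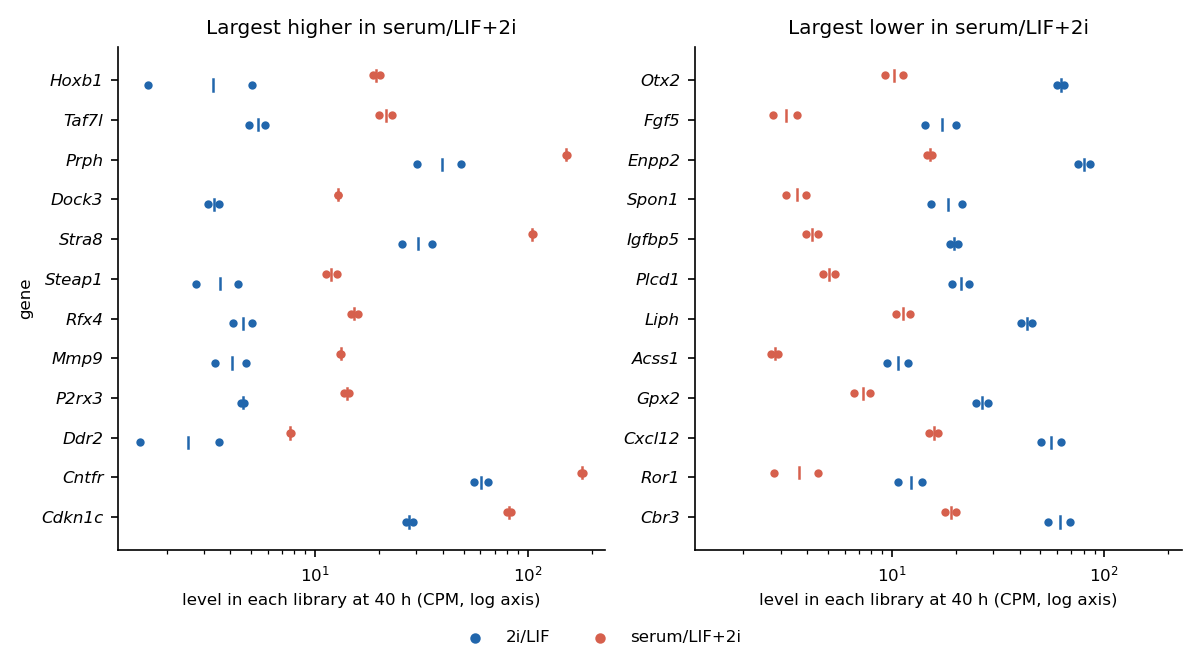
Levels in each of the 4 libraries at 40 h, in CPM on a log axis, for the 12 largest higher (left) and 12 largest lower (right) genes under the naming rule; points are libraries and bars are means. The rule admitted only genes without an overlap of the media, and the widest replicate gap is that of Hoxb1 in 2i/LIF (1.63 and 5.03 CPM).

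The lists of genes used below were described by how many members were called and by the median log2 difference. Of all genes tested, 27.3% were called, 13.9% higher and 13.4% lower, and their median was 0.01. The called share was below that of all genes for the lists of primitive streak, neural ectoderm, fatty acid synthesis, macropinocytosis and Wnt response genes. It was also below for BMP and ID genes, Notch genes, and the primitive endoderm and trophoblast markers. Calls in these lists describe single genes and not the list.

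Naive pluripotency genes, the transcription factors and ligands of the pre-implantation epiblast, were split at 40 h. Of 14 tested, 6 were lower in serum/LIF+2i and 4 higher, with a median of -0.19. Esrrb, an orphan nuclear receptor that sustains self-renewal, stood at 39.6 and 35.2 CPM in 2i/LIF against 15.4 and 15.7 CPM in serum/LIF+2i (-1.27 ± 0.08), and Nr0b1, a nuclear receptor cofactor, at 28.1 and 24.6 CPM in 2i/LIF against 9.82 and 9 CPM in serum/LIF+2i (-1.48 ± 0.11). Nanog was at 29.1 and 26.6 CPM in 2i/LIF against 14.9 and 16.1 CPM in serum/LIF+2i (-0.85 ± 0.09) and Fgf4, the epiblast's own FGF ligand, at 214 and 195 CPM in 2i/LIF against 138 and 125 CPM in serum/LIF+2i (-0.64 ± 0.05). The serum/LIF+2i libraries were the lower ones for each of these 4, which were named for the smallest adjusted p of the list. The 4 higher members, named after their values were seen, were the Kruppel-like factors Klf2 (0.59 ± 0.08) and Klf5 (0.44 ± 0.12), Tfcp2l1 (0.30 ± 0.08) and Tbx3 (1.74 ± 0.29). Tbx3 was at low level, 1.38 and 1.49 CPM in 2i/LIF against 5.43 and 4.16 CPM in serum/LIF+2i.

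Formative and primed genes went mostly one way. Of 17 tested, 10 were lower in serum/LIF+2i and 2 higher, with a median of -0.32. Beside Otx2 and Fgf5, the ETS factor Etv5 stood at 313 and 306 CPM in 2i/LIF against 229.7 and 225 CPM in serum/LIF+2i (-0.45 ± 0.04, adjusted p = 7.16e-18 by edgeR). Dnmt3b, a de novo DNA methyltransferase of the post-implantation epiblast, stood at 2335 and 2108 CPM in 2i/LIF against 1771 and 1689 CPM in serum/LIF+2i (-0.36 ± 0.04). Pou3f1, a POU factor of the epiblast and neural plate, was lower (-0.62 ± 0.07), and the ETS factor Etv4 was higher (0.27 ± 0.06), both named after their values were seen. General pluripotency genes were closer: 4 of 14 were higher and 1 lower, with a median of 0.06, but 2 were higher and 0 lower with DESeq2, without replicate 1 of 2i/LIF and without replicate 2 of serum/LIF+2i, and 2 and 1 without its replicate 1. The Nodal inhibitors Lefty2, at 16.3 and 16.3 CPM in 2i/LIF against 23.5 and 25.5 CPM in serum/LIF+2i, and Lefty1, at 59.99 and 59.8 CPM in 2i/LIF against 76.5 and 75.3 CPM in serum/LIF+2i, were among the higher ones. Utf1 (-0.13 ± 0.05) and the RNA-binding Lin28b (0.16 ± 0.06) were called by edgeR and not by DESeq2.

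Retinoic acid, made from dietary vitamin A, binds the receptors Rara, Rarb and Rarg on DNA and induces Hox genes, Stra8 and its own binding and breakdown proteins. Of 19 tested genes of this response, 11 were higher in serum/LIF+2i and 1 lower, with a median of 0.50, or 0.55 where a group at the floor of 3 counts was set to its bound. Hoxb2 stood at 0.376 and 0.951 CPM in 2i/LIF against 8.10 and 7.84 CPM in serum/LIF+2i (3.58 ± 0.38) and the homeobox cofactor Meis2 at 28.4 and 30.98 CPM in 2i/LIF against 57.7 and 60.4 CPM in serum/LIF+2i (0.99 ± 0.09). Among members named after their values were seen, the receptor Rarb was higher by 1.63 ± 0.45, Rara by 0.47 ± 0.07 and Rarg by 0.34 ± 0.04. The lower member was Crabp2 (-0.39 ± 0.09), which carries retinoic acid to its receptors, and Aldh1a2, which makes it, was at 2.13 and 4.08 CPM in 2i/LIF against 2.33 and 3.58 CPM in serum/LIF+2i and was not called. With DESeq2 the list had 8 higher and 0 lower.

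Genes of the primitive streak and early mesoderm were scarce in both media. Their summed level was 27.4 and 28.2 CPM in 2i/LIF and 49.5 and 55.2 CPM in serum/LIF+2i. Of 12 tested, 3 were higher and 0 lower, with a median of 0.38, or 0.66 with groups at the floor set to their bound. Wnt8a, a Wnt ligand of the posterior epiblast, made up most of the sum, at 15.3 and 16.3 CPM in 2i/LIF against 29.6 and 36.4 CPM in serum/LIF+2i (1.06 ± 0.12, adjusted p = 2.79e-12 by edgeR). Nkx1-2, a homeobox gene of the caudal epiblast, stood at 3.76 and 3.40 CPM in 2i/LIF against 5.77 and 5.90 CPM in serum/LIF+2i and was not called by DESeq2. The posterior homeobox gene Cdx1 had 1 count in each 2i/LIF library and 11 and 13 counts in serum/LIF+2i. Wnt3 (1.18 ± 0.56) was not called. Among 8 neural and anterior ectoderm genes, with a median of -0.21, Sox1 was higher, at 19.3 and 25.95 CPM in 2i/LIF against 49.9 and 44.5 CPM in serum/LIF+2i, and Nes, the filament protein nestin, was lower, at 48.2 and 41.6 CPM in 2i/LIF against 30.3 and 31.5 CPM in serum/LIF+2i. Zic5 (-0.19 ± 0.10) and Pou3f2 (-1.06 ± 0.80) were not called.

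When amino acids run short or unfolded protein builds up, translation initiation is slowed by phosphorylation of eIF2alpha while the transcription factor ATF4 is made, and ATF4 raises genes for amino acid synthesis, uptake and tRNA charging. ATF4 acts with C/EBP partners at a composite element whose core, as searched here, is TGATGNAA. Genes of this response were higher in serum/LIF+2i: of 27 tested, 22 were higher and 1 lower, with a median of 0.36, where 13.9% of all genes were higher. The cysteine-making enzyme Cth stood at 184 and 201 CPM in 2i/LIF against 313 and 314 CPM in serum/LIF+2i (0.71 ± 0.04, adjusted p = 1.29e-30 by edgeR), and the mitochondrial serine and glycine enzyme Shmt2 at 397 and 427 CPM in 2i/LIF against 642 and 628 CPM in serum/LIF+2i (0.62 ± 0.04). Trib3, a pseudokinase that feeds back on ATF4, stood at 114 and 121 CPM in 2i/LIF against 201 and 194 CPM in serum/LIF+2i (0.75 ± 0.05). Ppp1r15a, the phosphatase subunit that restores translation, stood at 27.4 and 27.6 CPM in 2i/LIF against 58.9 and 59.6 CPM in serum/LIF+2i (1.11 ± 0.09). These 4 were named for the smallest adjusted p of the list, so the lack of overlap between the media for them adds no support. Exons of Shmt2 and Ppp1r15a overlap another counted gene on the other strand.

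The largest differences of that list, named after their values were seen, were those of the regulators. Atf3 stood at 11.5 and 13.3 CPM in 2i/LIF against 33.4 and 39.7 CPM in serum/LIF+2i (1.56 ± 0.13), Ddit3, the factor also called CHOP, at 17.4 and 27.4 CPM in 2i/LIF against 55.2 and 56.03 CPM in serum/LIF+2i (1.32 ± 0.11), and Atf5 at 76.4 and 98.4 CPM in 2i/LIF against 238 and 225 CPM in serum/LIF+2i (1.41 ± 0.07). The RNA of Atf4 itself was at 512 and 518 CPM in 2i/LIF against 524 and 516 CPM in serum/LIF+2i (0.01 ± 0.04) and was not called. The lower member was the alanine aminotransferase Gpt2 (-0.12 ± 0.04), also named after its value was seen.

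Promoter sequences are shown for the higher members of this list, the transporters and the tRNA synthetases that carry the core element. Members that were not higher are not printed, whether or not they carry it. They come from the RefSeq windows of GRCm38.p6, which run from 250 bases before to 50 bases after each start site. Each line gives the gene's strand from 5′ to 3′, with 16 bases on either side of the match. The capitals mark the match, which reads TTNCATCA where the element lies on the opposite strand. Not every match of these members is printed, and those left out include matches whose stretch would run past the start site or the window's far end.
Atf3, chr1:191183420-191183459, minus strand: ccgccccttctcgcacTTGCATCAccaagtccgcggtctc
Chac1, chr2:119351033-119351072, plus strand: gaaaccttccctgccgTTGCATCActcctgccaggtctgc
Herpud1, chr8:94386301-94386340, plus strand: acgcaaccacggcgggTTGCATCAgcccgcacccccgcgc
Vldlr, chr19:27216804-27216843, plus strand: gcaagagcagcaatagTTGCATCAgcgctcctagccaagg
Slc7a11, chr3:50443656-50443695, minus strand: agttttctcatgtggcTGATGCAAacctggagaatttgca
Slc7a11, chr3:50443637-50443676, minus strand: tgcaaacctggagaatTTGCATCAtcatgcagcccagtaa
Gars, chr6:55037955-55037994, plus strand: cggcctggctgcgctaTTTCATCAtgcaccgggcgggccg
Aars, chr8:111033714-111033753, plus strand: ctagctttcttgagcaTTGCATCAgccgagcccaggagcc
On either strand, TGATGNAA was found in 1304 of all 32851 windows (3.97%). It was found in 9 of the 28 windows of the amino acid response list, for which 25 of the 27 tested members had a window, and in 6 of the 23 windows of the higher members. For aminoacyl-tRNA synthetases it was 5 of 13 windows, and 5 of 7 for the higher members. For amino acid transporters it was 4 of 30, and 2 of 16 for the higher members. A match describes these letters only, and no binding was measured.

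Aminoacyl-tRNA synthetases, which load amino acids onto tRNAs, showed small differences in one direction. Of 20 cytosolic members tested, 12 were higher and 1 lower, with a median of 0.18. Eprs stood at 792 and 856 CPM in 2i/LIF against 1086 and 1100.2 CPM in serum/LIF+2i (0.41 ± 0.03, adjusted p = 2.23e-19 by edgeR), and Wars at 150.04 and 165 CPM in 2i/LIF against 213 and 218 CPM in serum/LIF+2i (0.45 ± 0.05). Sars was higher by 0.35 ± 0.04 and Gars by 0.29 ± 0.04. The lower member was Qars (-0.21 ± 0.04), named after its value was seen. The 20 log2 differences ran from -0.21 for Qars to 0.45 for Wars.

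The series is about amino acid intake and pluripotent states, and plasma membrane amino acid transporters were tested as 28 genes. Of these, 13 were higher in serum/LIF+2i and 4 lower, with a median of 0.22, or 11 and 2 with DESeq2 and without replicate 1 of 2i/LIF. The lower count was also 2 without replicate 2 of either medium. Slc38a1, a glutamine transporter of system A, stood at 330.4 and 316 CPM in 2i/LIF against 413 and 413 CPM in serum/LIF+2i (0.35 ± 0.04). Slc3a2, the heavy chain that pairs with several SLC7 light chains, stood at 409.8 and 439 CPM in 2i/LIF against 535 and 529.6 CPM in serum/LIF+2i (0.33 ± 0.04), and Slc7a11, the cystine and glutamate exchanger, at 25.3 and 27.3 CPM in 2i/LIF against 41.3 and 45.8 CPM in serum/LIF+2i (0.73 ± 0.10, adjusted p = 6.56e-10 by edgeR). The glycine transporter Slc6a9 was at 52.98 and 59.4 CPM in 2i/LIF against 81.8 and 83.9 CPM in serum/LIF+2i, and its exons overlap those of B4galt2 and Ccdc24. The arginine and lysine transporter Slc7a1, named after its value was seen, had the largest difference of the list, at 204 and 251 CPM in 2i/LIF against 382 and 382 CPM in serum/LIF+2i (0.75 ± 0.06). The lowest called member was Slc43a1 (-0.69 ± 0.13), also named afterwards.

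Chaperones and quality-control proteins of the endoplasmic reticulum belong to the unfolded protein response, which shares the eIF2alpha arm with the amino acid response. Of 20 tested, 12 were higher and 0 lower, with a median of 0.19. Hspa5, the main chaperone BiP, stood at 722 and 715 CPM in 2i/LIF against 859 and 899 CPM in serum/LIF+2i (0.29 ± 0.04). Sel1l and Syvn1 form a ubiquitin ligase for misfolded proteins. Sel1l stood at 52.9 and 50.96 CPM in 2i/LIF against 77.4 and 75 CPM in serum/LIF+2i (0.55 ± 0.07) and Syvn1 at 34.6 and 33.3 CPM in 2i/LIF against 52.6 and 50.5 CPM in serum/LIF+2i (0.60 ± 0.08). Dnajc3, an inhibitor of eIF2alpha kinases, was higher by 0.46 ± 0.07. Without replicate 2 of 2i/LIF, 7 members were higher and 0 lower.

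Glycolysis genes were lower in serum/LIF+2i. The list joins glycolytic enzymes with transporters and regulators that the oxygen-sensitive factor HIF1 induces through elements with the core ACGTG. Of 23 tested, 17 were lower and 2 higher, where 13.4% of all genes were lower, and the median was -0.47, the lowest of the 32 lists. Aldoa, the muscle-type aldolase, stood at 1913 and 1785 CPM in 2i/LIF against 1308 and 1284 CPM in serum/LIF+2i (-0.51 ± 0.03), and Eno1, an enolase, at 844 and 774 CPM in 2i/LIF against 548 and 552 CPM in serum/LIF+2i (-0.56 ± 0.04). Pdk1, a kinase that inhibits pyruvate dehydrogenase, stood at 339 and 364 CPM in 2i/LIF against 214 and 218 CPM in serum/LIF+2i (-0.70 ± 0.04). Egln3, a prolyl hydroxylase that marks HIF for breakdown and is itself induced by HIF, had the largest difference, at 52.98 and 55.98 CPM in 2i/LIF against 20.4 and 17.2 CPM in serum/LIF+2i (-1.53 ± 0.10, adjusted p = 1.94e-26 by edgeR).

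No library of one medium overlapped the other for these 4 genes, which were named for the smallest adjusted p of the list. Among members named after their values were seen, Ldha, which makes lactate, stood at 1395 and 1289.8 CPM in 2i/LIF against 968 and 964 CPM in serum/LIF+2i, the glucose transporter Slc2a1 at 468 and 455 CPM in 2i/LIF against 315 and 330.3 CPM in serum/LIF+2i and the lactate exporter Slc16a3 at 276 and 249 CPM in 2i/LIF against 154 and 156 CPM in serum/LIF+2i. Of the 2 higher members, Vegfa, an angiogenic factor that HIF also induces, stood at 69.5 and 83.8 CPM in 2i/LIF against 111 and 115 CPM in serum/LIF+2i (0.56 ± 0.06). Gapdh (-0.13 ± 0.29) and Pgam1 (-0.09 ± 0.08) were not called, and they and Pgk1 (-0.92 ± 0.08) share sequence with processed pseudogenes, so their counts are uncertain.

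For the lower members, 1 stretch around an ACGTG is shown for each in the same way, taken at the match nearest to the start site whose flanking bases end before it, with CACGT where the core lies on the opposite strand; lower-case letters may hold further copies, and the cores of both strands overlap in CACGTG.
Aldoa, chr7:126799360-126799396, minus strand: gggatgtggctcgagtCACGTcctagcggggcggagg
Bnip3, chr7:138909593-138909629, minus strand: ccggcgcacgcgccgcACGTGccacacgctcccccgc
Egln3, chr12:54204083-54204119, minus strand: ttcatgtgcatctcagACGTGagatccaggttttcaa
Ldha, chr7:46845754-46845790, plus strand: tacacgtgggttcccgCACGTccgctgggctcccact
Pgk1, chrX:106186953-106186989, plus strand: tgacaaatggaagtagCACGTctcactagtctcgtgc
Pkm, chr9:59657136-59657172, plus strand: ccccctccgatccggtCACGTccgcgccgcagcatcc
Slc16a3, chr11:120949024-120949060, plus strand: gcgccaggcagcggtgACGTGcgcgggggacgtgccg
Slc2a1, chr4:119108693-119108729, plus strand: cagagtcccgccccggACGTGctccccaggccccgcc
On either strand, ACGTG was found in 6447 of all 32851 windows (19.6%). It was found in 16 of the 31 windows of this list (21 of the 23 tested members had a window) and in 12 of the 25 windows of the members that were lower. So short a core is common, and the counts say nothing of the factor that may bind it.

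Genes of the mitochondrial chromosome, which encode subunits of the respiratory chain, were also lower. Of 8 tested, 7 were lower and 0 higher, with a median of -0.42. COX1, a subunit of cytochrome oxidase, stood at 9100.5 and 8998 CPM in 2i/LIF against 6054 and 6389 CPM in serum/LIF+2i (-0.54 ± 0.03). For the complex I subunits ND1 and ND4 the log2 differences were -0.38 ± 0.03 and -0.45 ± 0.04, and for CYTB of complex III it was -0.23 ± 0.03. The genes of this chromosome took 2.24% and 2.19% of the counts in 2i/LIF, against 1.63% and 1.74% in the other medium. Most of these RNAs carry short poly(A) tails, and the part of selection or RNA quality in the difference was not tested.

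Cholesterol synthesis genes, which the membrane-bound factor SREBP2 raises when sterols are low, were modestly lower: 15 of 25 were lower in serum/LIF+2i and 0 higher, with a median of -0.19. Insig1, which holds SREBP2 back, stood at 299 and 285 CPM in 2i/LIF against 234 and 232 CPM in serum/LIF+2i (-0.33 ± 0.04). The sterol carrier Stard4 (-0.40 ± 0.06) and the isomerase Ebp (-0.71 ± 0.13) were also lower. Among 14 genes of fatty acid synthesis, 1 was higher and 2 lower, with a median of -0.03. The desaturase Fads2 stood at 261 and 237 CPM in 2i/LIF against 209 and 198 CPM in serum/LIF+2i (-0.29 ± 0.04), while Fasn (-0.10 ± 0.04) and Scd2 (0.13 ± 0.04) were called by edgeR and not by DESeq2, and Elovl6 (0.09 ± 0.04) was not called.

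Lysosomal genes, whose products break down what cells take up, included 10 higher and 4 lower of 33, with a median of 0.08. Lamp1, the major membrane glycoprotein, stood at 287 and 295 CPM in 2i/LIF against 358 and 353 CPM in serum/LIF+2i (0.29 ± 0.04), the sphingolipid activator Psap at 188 and 201 CPM in 2i/LIF against 231 and 226 CPM in serum/LIF+2i (0.23 ± 0.04) and the protease Ctsl at 168 and 192 CPM in 2i/LIF against 214 and 215 CPM in serum/LIF+2i (0.25 ± 0.05). Ctsf, another protease, was higher by 0.67 ± 0.13. Without replicate 1 of 2i/LIF the counts were 6 and 4 and the median was -0.02, and without replicate 1 of serum/LIF+2i they were 10 and 2 with a median of 0.01. DESeq2 gave 6 and 2. Regulators of macropinocytosis, the bulk uptake of fluid and protein, gave 2 higher and 2 lower of 27, with a median of 0.02, which is 14.8% called against 27.3% of all genes. DESeq2 gave 0 and 1, and leaving out 1 library gave 0 or 1 higher and 1 or 2 lower. Rab34, a GTPase of macropinosomes, was at 53.7 and 48.8 CPM in 2i/LIF against 38.1 and 38.6 CPM in serum/LIF+2i (-0.42 ± 0.08). Hras (-0.27 ± 0.07), Ctbp1 (0.14 ± 0.05) and Ankfy1 (0.14 ± 0.05) were called by edgeR and not by DESeq2.

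The signalling lists were mixed. Withdrawal of the MEK inhibitor lets ERK signal, and of 14 ERK response genes 5 were higher and 2 lower, with a median of 0.11. Myc stood at 53.1 and 61.3 CPM in 2i/LIF against 99.3 and 101 CPM in serum/LIF+2i (0.81 ± 0.07), the ERK pathway inhibitor Spred1 at 125 and 132 CPM in 2i/LIF against 175 and 181 CPM in serum/LIF+2i (0.47 ± 0.05) and the ETS factor Etv1 at 22.8 and 22.7 CPM in 2i/LIF against 36.3 and 32.4 CPM in serum/LIF+2i (0.60 ± 0.10), while cyclin D1 (Ccnd1) was lower, at 264 and 246 CPM in 2i/LIF against 191 and 200.4 CPM in serum/LIF+2i (-0.38 ± 0.04). Of 15 LIF and STAT3 response genes (median 0.05), 4 were higher and 5 lower, or 1 and 2 without replicate 1 of 2i/LIF, and the median was -0.06 without replicate 1 of serum/LIF+2i. The kinase Sgk1 stood at 122 and 118 CPM in 2i/LIF against 55.2 and 52.2 CPM in serum/LIF+2i (-1.16 ± 0.06) and the homeobox gene Gbx2 at 57.6 and 61.3 CPM in 2i/LIF against 90.7 and 84.6 CPM in serum/LIF+2i (0.56 ± 0.07). The feedback inhibitor Socs2 was lower (-0.29 ± 0.06) and the receptor subunit Il6st higher by 0.32 ± 0.07, with an adjusted p for Il6st of 0.0639 in edgeR without that library.

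Nodal and activin keep the epiblast pluripotent and later pattern it. Of 16 genes of this pathway, 3 were higher and 6 lower, with a median of 0.06, or 3 and 3 with a median of 0.01 without replicate 1 of serum/LIF+2i. The co-receptor Tdgf1 stood at 371 and 382 CPM in 2i/LIF against 311 and 314 CPM in serum/LIF+2i (-0.27 ± 0.04), the nuclear partner Foxh1 at 99.4 and 96.7 CPM in 2i/LIF against 78.2 and 78.97 CPM in serum/LIF+2i (-0.32 ± 0.06) and the SMAD repressor Skil at 377 and 369 CPM in 2i/LIF against 317 and 306 CPM in serum/LIF+2i (-0.26 ± 0.04), whereas the inhibitors Lefty1 and Lefty2 were higher as given above. Of 13 BMP and ID genes (median -0.18), Smad5 was higher (0.37 ± 0.06), Id3 (-0.88 ± 0.24) and the decoy receptor Bambi (-0.42 ± 0.14) were lower, and Bmpr2 (0.24 ± 0.11) was not called. Bambi was not called by DESeq2, and the adjusted p of Id3 was 0.223 in edgeR without replicate 1 of 2i/LIF. Of 13 Notch genes (median 0.01), Jag2, a ligand, was higher (0.52 ± 0.10), and Dtx1 (-0.82 ± 0.09) and Notch1 (-0.35 ± 0.08) were lower, while the ligand Dll3 (-0.42 ± 0.22) was not called. Notch1 had an adjusted p of 0.0784 in edgeR without that library. Of 14 Wnt response genes (median 0.17), Notum, an extracellular inhibitor that Wnt induces, was lower, at 6.64 and 5.84 CPM in 2i/LIF against 2.41 and 2.32 CPM in serum/LIF+2i (-1.39 ± 0.23). Ccnd2 (0.38 ± 0.15, not called by DESeq2) and Cdx1 were higher, and Axin2 (0.36 ± 0.17) was not called. Without replicate 2 of 2i/LIF the Wnt counts were 1 higher and 1 lower and the median was -0.0016. They were also 1 and 1 with DESeq2 and without either serum/LIF+2i library. Leaving out 1 library moved the Notch median between -0.19 (without replicate 2 of 2i/LIF) and 0.12 (without its replicate 1), and gave 1 higher and 0 lower BMP and ID genes without replicate 1 of 2i/LIF.

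**Figure D3:**
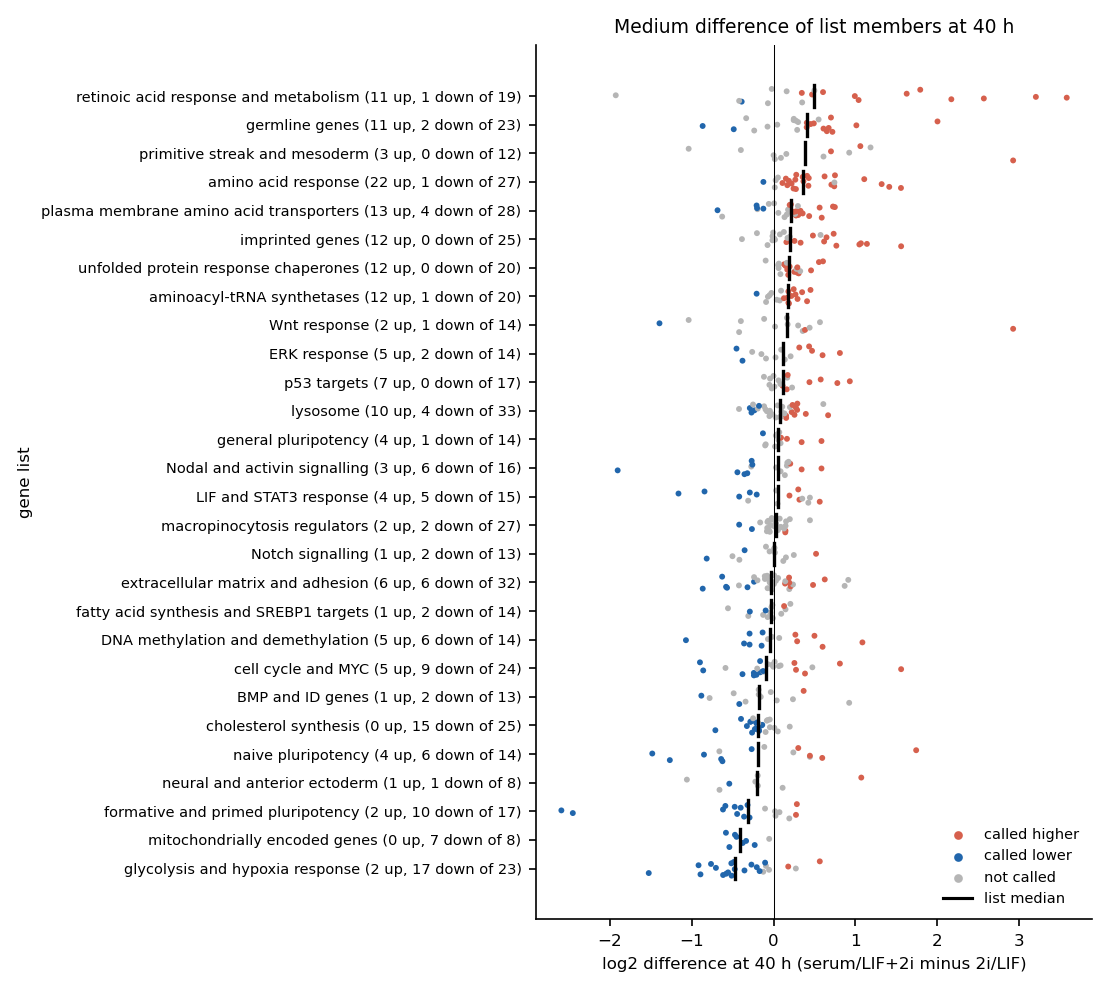
Each point is a tested member of a gene list, placed by its log2 difference at 40 h (serum/LIF+2i minus 2i/LIF) and coloured by its call, and black bars are list medians, sorted. Medians run from -0.47 (glycolysis and hypoxia response) to 0.50 (retinoic acid response and metabolism) over the 28 lists plotted, which leave out the 4 lists of other cell types, against 0.01 for all genes tested.

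De novo methylation of DNA rises as cells leave the naive state. Of 14 genes of methylation and demethylation, 5 were higher and 6 lower, with a median of -0.04. Without replicate 1 of 2i/LIF the counts were 2 and 3, and without replicate 1 of serum/LIF+2i 3 and 4. Dnmt3a stood at 1291 and 1271 CPM in 2i/LIF against 1053 and 1037 CPM in serum/LIF+2i (-0.29 ± 0.03) and Uhrf1, which brings Dnmt1 to replicated DNA, at 569.6 and 523 CPM in 2i/LIF against 443 and 449 CPM in serum/LIF+2i (-0.29 ± 0.04). Dnmt3l, the catalytically inactive partner of the de novo enzymes, went the other way, at 251 and 307 CPM in 2i/LIF against 587 and 596 CPM in serum/LIF+2i (1.08 ± 0.09, adjusted p = 2.14e-05 by edgeR). Before exit it had been at 8.62 and 6.38 CPM in 2i/LIF against 184 and 153 CPM in serum/LIF+2i. Exons of Dnmt3l overlap those of Aire, and exons of Dnmt3a those of Dnmt3aos, on the other strand. Germline genes, many of which are silenced by promoter methylation in the epiblast, had 11 higher and 2 lower of 23, with a median of 0.40. Besides Taf7l, the meiotic histone reader Zcwpw1 stood at 23.3 and 22.7 CPM in 2i/LIF against 36.6 and 38.2 CPM in serum/LIF+2i (0.70 ± 0.10) and Mael, of the piRNA pathway, at 27.1 and 23.5 CPM in 2i/LIF against 38.4 and 39 CPM in serum/LIF+2i (0.61 ± 0.10). The lower members were led by Rpl10l (-0.87 ± 0.07), a retrogene copy of Rpl10 whose reads may be split with its parent. The germline count depended on the setting: DESeq2 gave 5 higher and 2 lower, and leaving out replicate 1 of 2i/LIF gave 6 and 2, or replicate 2 of serum/LIF+2i 7 and 2.

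Imprinted genes are expressed from 1 parental copy, and many of them restrain or promote growth. Of 25 tested, 12 were higher in serum/LIF+2i and 0 lower, with a median of 0.20. Besides Cdkn1c, the adaptor Grb10, which dampens insulin signalling, stood at 457 and 554 CPM in 2i/LIF against 1037 and 1049 CPM in serum/LIF+2i (1.05 ± 0.06). The retrotransposon-derived Peg10 stood at 233 and 258 CPM in 2i/LIF against 373 and 394 CPM in serum/LIF+2i (0.65 ± 0.04) and the noncoding RNA Meg3 at 489.9 and 530.2 CPM in 2i/LIF against 614 and 602 CPM in serum/LIF+2i (0.26 ± 0.04). Igf2 (1.07 ± 0.20) and H19 (1.14 ± 0.25), neighbours under 1 control region, were both higher and were named after their values were seen.

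Cell cycle and MYC genes had 5 higher and 9 lower of 24, with a median of -0.10. The higher count was 2 with DESeq2 and without replicate 1 of serum/LIF+2i, and 3 without replicate 1 of 2i/LIF. Mycn, the main MYC gene of the epiblast, stood at 191 and 162 CPM in 2i/LIF against 101 and 88.4 CPM in serum/LIF+2i (-0.90 ± 0.06), the opposite direction to Myc. Of 17 targets of p53, 7 were higher and 0 lower, with a median of 0.11. Mdm2, which degrades p53, stood at 126 and 137 CPM in 2i/LIF against 182 and 175 CPM in serum/LIF+2i (0.44 ± 0.05), the kinase Plk2 was higher by 0.58 ± 0.09, the membrane protein Perp by 0.93 ± 0.20 and the cytokine Gdf15 by 0.78 ± 0.17, while Cdkn1a (-0.05 ± 0.06) was not called. Matrix and adhesion genes had 6 higher and 6 lower of 32, with a median of -0.03. The basement membrane protein Nid2 (-0.63 ± 0.04), P-cadherin (Cdh3, -0.87 ± 0.11) and the claudin Cldn4 (-0.57 ± 0.07) were lower, and the collagen Col18a1 (0.21 ± 0.04) was higher.

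Markers of other cell types were at low levels in all 4 libraries. Summed over 12 primitive endoderm markers, the level was 13.8 and 15.3 CPM in 2i/LIF and 20.0 and 19.5 CPM in serum/LIF+2i, with 1 of 5 tested members called (Gata4, 0.877 and 2.31 against 3.45 and 3.97 CPM). Summed over 11 trophoblast markers it was 9.63 and 8.69 against 11.1 and 12.0 CPM, with Tfap2c (1.88 and 1.63 against 3.96 and 3.58 CPM) called of 6 tested. Summed over 14 fibroblast markers it was 26.5 and 19.3 against 17.7 and 17.7 CPM, with Dcn (13.4 and 8.97 against 5.52 and 3.97 CPM) and Thy1 (5.89 and 4.21 against 3.27 and 2.71 CPM) lower and Pdgfrb (1.25 and 1.22 against 2.76 and 2.23 CPM) higher of 6 tested. The calls of Gata4, Thy1 and Pdgfrb were not made by DESeq2. In these 3 lists 1, 3 and 3 members had 0 counts in all 4 libraries. The medians of the tested members were 0.28, -0.10 (0.02 with a group at the floor set to its bound) and 0.04. Their part in the results above was not tested.

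Genes of the 2-cell-like state, a rare state of ES cells resembling the cleavage embryo, summed to 29.9 and 42.2 CPM in 2i/LIF and 72.0 and 72.6 CPM in serum/LIF+2i. Of 12 tested members 11 were higher and 0 lower, with a median of 1.07. Zscan4d stood at 8.27 and 13.6 CPM in 2i/LIF against 18.8 and 18.97 CPM in serum/LIF+2i (0.80 ± 0.15), Zscan4c at 4.26 and 4.21 CPM in 2i/LIF against 10.3 and 8.03 CPM in serum/LIF+2i, Zscan4b at 0.751 and 1.36 CPM in 2i/LIF against 3.45 and 3.97 CPM in serum/LIF+2i and the arginase Arg2 at 1.13 and 1.09 CPM in 2i/LIF against 3.96 and 3.48 CPM in serum/LIF+2i. The Zscan4, Tcstv and Usp17l genes are near-identical copies whose reads may be split or shared, so the members are not separate observations. The count depended on the setting. It was 2 with DESeq2, and leaving out 1 library gave 4 without replicate 1 of 2i/LIF, 6 without replicate 1 of serum/LIF+2i and 7 without its replicate 2.

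The medium difference at 40 h was set beside that at the earlier times, each measured in its own 4 libraries. At 24 h, 4439 genes (31.1%) were called, with 14.1% of all genes higher and 17.0% lower. At 12 h the share was 30.3%, with 14.8% higher and 15.5% lower, and at 0 h, before exit, it was 33.0%, with 14.6% higher and 18.4% lower. Of the 1980 genes higher at 40 h, 872 (44.0%) were also higher at 24 h, where 14.1% of all genes were, and 391 (19.7%) were higher at 0 h, where 387 (19.5%) were lower. Of the 1917 lower at 40 h, 1005 (52.4%) were also lower at 24 h and 582 (30.4%) at 0 h, with 315 (16.4%) higher at 0 h. At all 4 times 192 genes were higher and 341 lower, and 501 of the higher and 442 of the lower genes were called at 40 h alone.

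A test of the change itself showed how far the difference at 40 h departed from the earlier ones. Between 24 and 40 h the medium difference changed in 1743 genes (12.2%), 6.57% towards serum/LIF+2i and 5.63% towards 2i/LIF. Between 0 and 40 h it changed in 3940 genes (27.6%), 14.8% towards serum/LIF+2i and 12.8% towards 2i/LIF. Otx2 had the largest negative change under the naming rule. At 12 h it was at 18.6 and 21.1 CPM in 2i/LIF and 38.7 and 36.7 CPM in serum/LIF+2i, and at 24 h at 84.0 and 78.9 against 94.6 and 90.8 CPM. Both serum/LIF+2i libraries were thus above 2i/LIF at 12 and 24 h and below it at 40 h. The change from 24 h was -2.78 ± 0.12 on the log2 scale (adjusted p = 5.52e-40 by edgeR). Plcd1 was at 17.2 and 14.6 against 18.4 and 20.1 CPM at 24 h, and at 23.2 and 19.3 against 4.74 and 5.42 CPM at 40 h.

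Other genes approached each other. The kinesin Kif1a was at 0.694 and 0.760 CPM in 2i/LIF and 4.20 and 5.40 CPM in serum/LIF+2i at 24 h, and at 32.9 and 30.03 CPM in 2i/LIF against 40.8 and 36.4 CPM in serum/LIF+2i at 40 h. The fucosyltransferase Fut1 went from 0.694 and 1.52 against 7.85 and 6.83 CPM to 12.1 and 12.8 against 19.6 and 15.5 CPM, and Trim66 from 2.64 and 3.04 against 33.4 and 36.2 CPM to 10.4 and 18.9 against 39.4 and 39.8 CPM, with 2i/LIF named first. Kcnip3, a calcium-binding protein, went from 0.416 and 0.152 against 2.32 and 1.94 CPM to 3.76 and 4.08 against 5.86 and 6.68 CPM. Each of these 4 genes was higher in serum/LIF+2i at both times, with a smaller log2 difference at 40 h. The differences of Kif1a, Fut1 and Kcnip3 at 40 h were not called by DESeq2.

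In the opposite direction, Wnt8a went from 4.58 and 5.62 CPM in 2i/LIF and 2.77 and 3.26 CPM in serum/LIF+2i at 24 h to the reversed order at 40 h. Nt5e, the cell-surface enzyme CD73, went from 14.6 and 10.5 against 6.75 and 6.73 CPM to 9.27 and 14 against 22.8 and 24.7 CPM, and Cnpy1 from 12.8 and 14.1 against 7.85 and 7.34 CPM to 4.63 and 5.71 against 9.48 and 11.7 CPM. Zscan4c, Zscan4e and Eif4a3l1, a near copy of Eif4a3, were also lower in serum/LIF+2i at 24 h and higher at 40 h, at levels of at most 10.3 CPM, and the values at 40 h of the last 2 were not called by DESeq2.

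**Figure D4:**
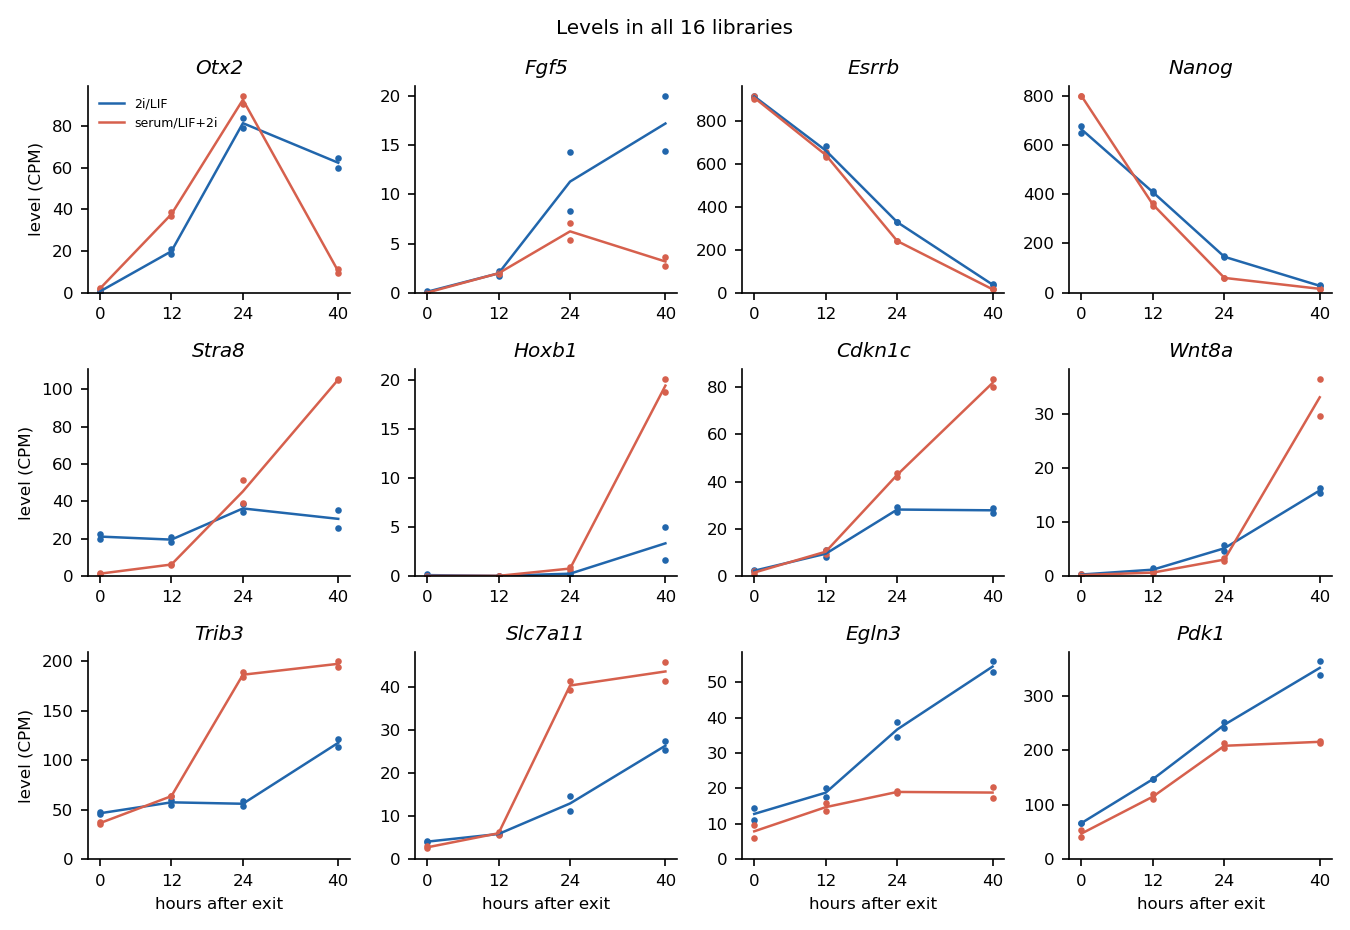
Levels of 12 named genes in CPM (linear axis from 0) in all 16 libraries against hours after exit; points are libraries, lines join group means, blue is 2i/LIF and red is serum/LIF+2i. Otx2 is higher in serum/LIF+2i up to 24 h and lower at 40 h (62.4 against 10.3 CPM on average), while Stra8 starts lower and ends higher (30.6 against 105 CPM).

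The lists moved at different times. The amino acid response had a median difference of -0.13 at 0 h and 0.76 at 24 h, where all 27 tested members were higher, against 0.36 at 40 h, and 19 members changed towards 2i/LIF between 24 and 40 h. Trib3, at 114 and 121 against 201 and 194 CPM at 40 h, had been at 53.6 and 58.4 against 189 and 184 CPM at 24 h, so that its serum/LIF+2i levels were close at both times while those in 2i/LIF were apart. Chaperones went from 0.45 at 24 h to 0.19. Retinoic acid genes went from -1.06 at 0 h, with 10 of 19 lower and 0 higher, to 0.26 at 24 h and 0.50 at 40 h. Among them, Stra8 was at 22.2 and 19.9 CPM in 2i/LIF and 0.882 and 1.47 CPM in serum/LIF+2i before exit, the reverse of its order at 40 h. Glycolysis genes went from 0.23 at 0 h, with 13 of 23 higher, to -0.25 at 24 h and -0.47 at 40 h, and 16 members changed towards 2i/LIF between 0 and 40 h. Cholesterol genes narrowed from -0.53 at 0 h, with 21 of 25 lower, to -0.19. Naive genes were at -0.42 at 24 h, with 11 of 14 lower, and at -0.19 at 40 h.

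**Figure D5:**
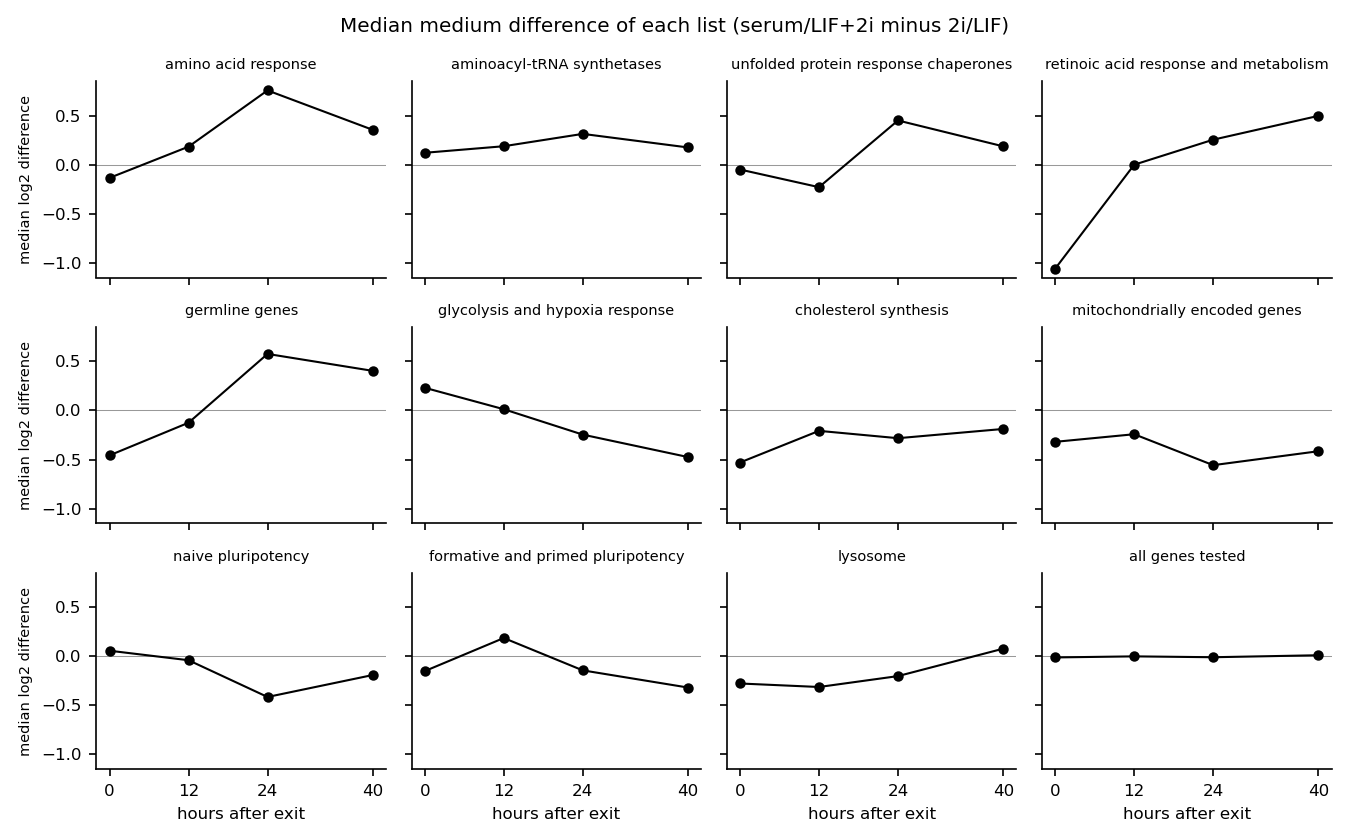
Median log2 difference of each list's tested members (serum/LIF+2i minus 2i/LIF) at 0, 12, 24 and 40 h after exit; each point is 1 list at 1 time. The amino acid response peaks at 24 h (0.76), the retinoic acid list climbs from -1.06 to 0.50, the glycolysis list descends from 0.23 to -0.47, and the median of all genes tested lies between -0.01 and 0.01.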

How the data were processed

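RNA of 16 libraries (8 groups of 2) was sequenced after TRIzol extraction and a stranded TruSeq mRNA kit, per the labels' protocols. Per the submitters' processing notes the authors used fastp, STAR and featureCounts with mm10; versions, annotation and strand setting are not given in the sources used here. The authors deposited whole-number raw counts per gene, with symbols for all but 1049 of 27179 genes. Totals ran from 5931381 to 11142744.

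From these, edgeR 4.0.16 (R 4.3.3, limma 3.58.1) was fitted to all 16 libraries with a group mean each. Genes passed filterByExpr at a minimum count of 10 and a total of 15, scaling was TMM, and the quasi-likelihood F test was robust, two-sided and Benjamini-Hochberg adjusted over 14288 genes at 0.05. The spread rested on 8 residual degrees of freedom and a common biological coefficient of variation of 3.19%. Log2 CPM values, as in the replicate correlations, used a prior count of 2. The log2 differences came from the fitted model, and their standard errors were derived from the F statistic. With 2 libraries a group, single-gene permutation tests cannot reach 0.05 and were not run.

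Members and the 32 gene lists were chosen with earlier results of these data known. Genes named first were the 12 largest called differences each way. These had a mean of at least 5 CPM, no predicted-model name, and both libraries of one medium beyond both of the other. Also named were the 4 members of each list with the smallest adjusted p and the 6 largest changes each way from 24 to 40 h. Others are said to be chosen after their values were seen, or are well known members given beside them.

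Replicate numbers were checked for pairing: deviations of same-numbered libraries correlated between -0.0781 and 0.0416 over 28 pairs of groups, so the numbers were not used as pairs. In simulated data for the difference at 40 h (14072 genes), 66, 67 and 67 genes were changed by 0.5, 1 and 2 on the log2 scale. Of these edgeR recovered 65.2%, 88.1% and 98.5%, with 21 false calls, and DESeq2 51.5%, 71.6% and 97.0%, with 2. The noise was drawn from the spread that edgeR had fitted, and far fewer genes were changed than were called in the data. The rates therefore need not hold for the data. Alternatives were DESeq2 1.42.0, other scalings and filters, a replicate block, and each library left out. Promoter windows came from RefSeq on GRCm38.p6, and positions from the GENCODE vM21 annotation. Values of 2 named list members are not reported here.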

Additional observations from a re-analysis of the deposited data

Results flagged for a closer look

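The values here are changes of the medium difference (serum/LIF+2i minus 2i/LIF, log2) between times, each tested in edgeR as the difference of 2 differences. Between 24 and 40 h it changed in 1743 genes, and between 0 and 40 h in 3940.

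The formative factor Otx2 changed by -2.78 ± 0.12 (SE) between 24 and 40 h and the phospholipase Plcd1 by -2.34 ± 0.21, so that both fell behind 2i/LIF. Kif1a changed by -2.41 ± 0.41, Fut1 by -2.23 ± 0.38, Trim66 by -2.17 ± 0.26 and Kcnip3 by -2.13 ± 0.70, from a large excess in serum/LIF+2i at 24 h to a smaller one. In the other direction, the Wnt ligand Wnt8a changed by 1.81 ± 0.30, the ectonucleotidase Nt5e by 1.94 ± 0.23 and Cnpy1 by 1.85 ± 0.26. Zscan4c changed by 2.07 ± 0.37, Zscan4e by 2.05 ± 0.45 and Eif4a3l1 by 1.84 ± 0.44, 3 genes with near-identical copies whose reads may be shared. Levels of Kcnip3 at 24 h were at most 2.32 CPM, and its adjusted p for the change was 0.028 by edgeR.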

How the results depend on the processing

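For the medium difference DESeq2 called 2010 genes at 40 h. It called 3115 before exit, 2668 after 12 h and 2729 after 24 h, and for the change of the difference 783 from 24 to 40 h and 2419 from 0 to 40 h. Requiring an absolute log2 value of at least 1 left 482, 297 and 803 for the difference at 40 h and the changes from 24 and 0 h. Leaving out 1 library gave 2240 to 3245 genes at 40 h, the lowest without replicate 1 of 2i/LIF, 1225 to 1447 for the change from 24 h and 3205 to 3572 for that from 0 h; the lone library is then assumed to vary like the other groups, and fewer samples enter the fit. With the replicate block the counts were 3911 at 40 h, 4745 before exit, 4355 after 12 h and 4451 after 24 h, and 1769 and 3947 for the changes, and the numbers do not pair the libraries. Scaling by library size alone gave 3906 genes at 40 h, of which 60.1% were higher, against 50.8% with TMM. DESeq2 size factors in edgeR gave 3883, no count filter 3660 and a mean of at least 5 CPM 3430. The 4 libraries at 40 h alone gave 3967, and 4021 with the replicate block. Thinning to the lowest total, added after the data were seen, gave 3409. Over these settings 1939 values of the named genes kept the call or its absence, 81 lost the call and 6 gained it. Direction reversed in 0 of the values called in the main fit or in the alternative. A change of sign without a call in either fit was not counted, nor were genes without an adjusted p in a setting. DESeq2 held the most lost calls (18). With totals of 7173358 to 11142744 counts, levels of 1 CPM rest on few reads, and differences of low genes were not detectable unless large.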

Other observations

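A further 5 lists were drawn up after values were seen, so their counts describe and support nothing. The 32 lists above, chosen with earlier results of these data known, share that limit. Hox cluster genes, which give cells their position along the body axis, included 9 higher and 0 lower of 17 tested at 40 h, with a median log2 difference of 1.92. The median was 2.17 with groups at the floor of 3 counts set to their bound. They came from the anterior part of the HoxA and HoxB clusters and from Hoxb9: Hoxa3 stood at 0.376 and 1.09 CPM in 2i/LIF against 5.34 and 4.74 CPM in serum/LIF+2i and Hoxb4 at 0.626 and 0.679 CPM in 2i/LIF against 3.96 and 2.90 CPM in serum/LIF+2i. Hoxb9 was at 0.376 and 1.22 CPM in 2i/LIF against 3.02 and 3 CPM in serum/LIF+2i. Posterior members such as Hoxb13 (-0.49 ± 0.83) and Hoxd13 (0.41 ± 0.43) were not called, and the level of each was 2.13 CPM or less in every library.

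Redox genes linked to glutathione and to the factor NRF2 were mostly lower in serum/LIF+2i: 18 of 24 were lower and 1 higher, with a median of -0.39. The quinone reductase Nqo1 stood at 134 and 130.04 CPM in 2i/LIF against 69.3 and 78.3 CPM in serum/LIF+2i (-0.84 ± 0.06). Gpx4, which removes lipid peroxides, stood at 67.5 and 59.5 CPM in 2i/LIF against 30.6 and 28.9 CPM in serum/LIF+2i (-1.09 ± 0.08), and the glutathione transferase Gstm1 at 40.6 and 37.4 CPM in 2i/LIF against 19.1 and 18.6 CPM in serum/LIF+2i (-1.05 ± 0.10). G6pdx (-0.40 ± 0.05) and Pgd (-0.60 ± 0.04), which make NADPH, were also lower. The higher member was the haem oxygenase Hmox1, at 132 and 142 CPM in 2i/LIF against 201 and 205 CPM in serum/LIF+2i (0.57 ± 0.05). The same list had 18 lower and 1 higher at 24 h and 15 lower and 2 higher at 0 h, in other libraries.

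Genes of the interferon response were lower in 13 of 17 tested cases and higher in 0, with a median of -1.29. The transcription factor Irf1 stood at 44.6 and 38.3 CPM in 2i/LIF against 15.3 and 14.03 CPM in serum/LIF+2i (-1.50 ± 0.10) and the membrane protein Ifitm1 at 30.7 and 27.3 CPM in 2i/LIF against 11.8 and 11.9 CPM in serum/LIF+2i (-1.29 ± 0.11). Several members were scarce, such as the GTPase Irgm1 at 4.63 and 4.62 CPM in 2i/LIF against 1.38 and 1.26 CPM in serum/LIF+2i. The interferon list had 13 lower and 0 higher at 24 h and 12 lower and 3 higher at 0 h, in other libraries. Nuclear-encoded subunits of the respiratory chain and ATP synthase were lower in 40 of 81 cases and higher in 1, with a median of -0.18, beside the mitochondrially encoded ones. Cytosolic ribosomal protein genes, many of which share reads with pseudogenes, were lower in 20 of 78 cases and higher in 1, with a median of -0.08. Their called share, 26.9%, was near the 27.3% of all genes tested.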
